A study of Mus musculus with 6 samples.

Results

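Interferon-stimulated antiviral genes were examined in mouse HoxB8 neutrophil progenitors. The members were 45 listed gene symbols, taken wherever the platform annotation of a probe set carried one of them. 41 members were measured, each by 1 probe set, among 22206 probe sets in all. Gbp5, Gbp6, Ifi44 and Ifi47 matched no probe set and were not analysed here. Both groups were Hoxb8 progenitors, a culture model in which the transcription factor Hoxb8 holds cells immature, and were differentiated for 1 day in Optimem Glutamax with FCS and SCF supernatant. They differed in the C/EBPα they expressed, the wild-type form (WT-C/EBPα, 3 arrays, called WT) or the K313 mutant (K313-C/EBPα, 3 arrays, called K313). C/EBPα is a transcription factor of granulocyte formation, and the labels do not say how its forms were introduced or whether a group is 1 clone. RNA was hybridised to Affymetrix Mouse Clariom S arrays, and values are log2 expression as the authors normalised it with RMA. The labels name no interferon, virus or microbial agent. They give neither the mouse strain nor whether replicates came from separate cultures. The p-values therefore rest on the spread among these 6 samples, and that spread may be technical.

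Interferons are secreted proteins that put cells into an antiviral state. Type I interferons act through the receptor chains IFNAR1 and IFNAR2, the kinases JAK1 and TYK2 and a complex that holds STAT2 and IRF9 and binds the interferon-stimulated response element (ISRE) in promoters. Interferon gamma acts through the receptor chains IFNGR1 and IFNGR2 with JAK1 and JAK2, and its target promoters often hold the gamma-activated site (GAS). Many of these genes have a low basal level without interferon, and others serve constant roles in myeloid cells.

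Few of the members differed between the groups. Of 41, 5 rose in K313, namely Gbp7, Gbp3, Ifit2, Ifi27 and Ifi35, and 1 fell, Usp18, at an adjusted p under 0.05 (limma with Benjamini-Hochberg adjustment over all probe sets). That is 14.6% of the members, against 7.75% of all probe sets. With the ordinary variance of each probe set, in place of limma's variance shared across probe sets, Gbp7 and Usp18 kept their calls and Gbp3 (adjusted p = 0.186), Ifit2 (0.247), Ifi27 (0.084) and Ifi35 (0.055) lost theirs. By direction the background was 3.77% higher and 3.97% lower. The median difference, K313 minus WT, was 0.12 on the log2 scale over the members and 0.02 over all probe sets. It was 0.054 with quantile normalization and 0.04 with arrays brought to a common median. The groups did not overlap in 8 members (19.5%), against 21.9% of all probe sets. The median level over the members was 4.46, 4.46 and 4.52 on the WT arrays and 4.73, 4.66 and 4.72 on the K313 arrays, while the median of all probe sets was 5.01 to 5.06 and 5.055 to 5.13. All differences below are K313 minus WT in log2 units, their errors are standard errors of the fit with n = 3 per group, and every adjusted p comes from that limma fit. Counts at an unadjusted p under 0.05 are given below without the share of all probe sets at that cut. They therefore have no background to be read against.

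**Figure D1:**
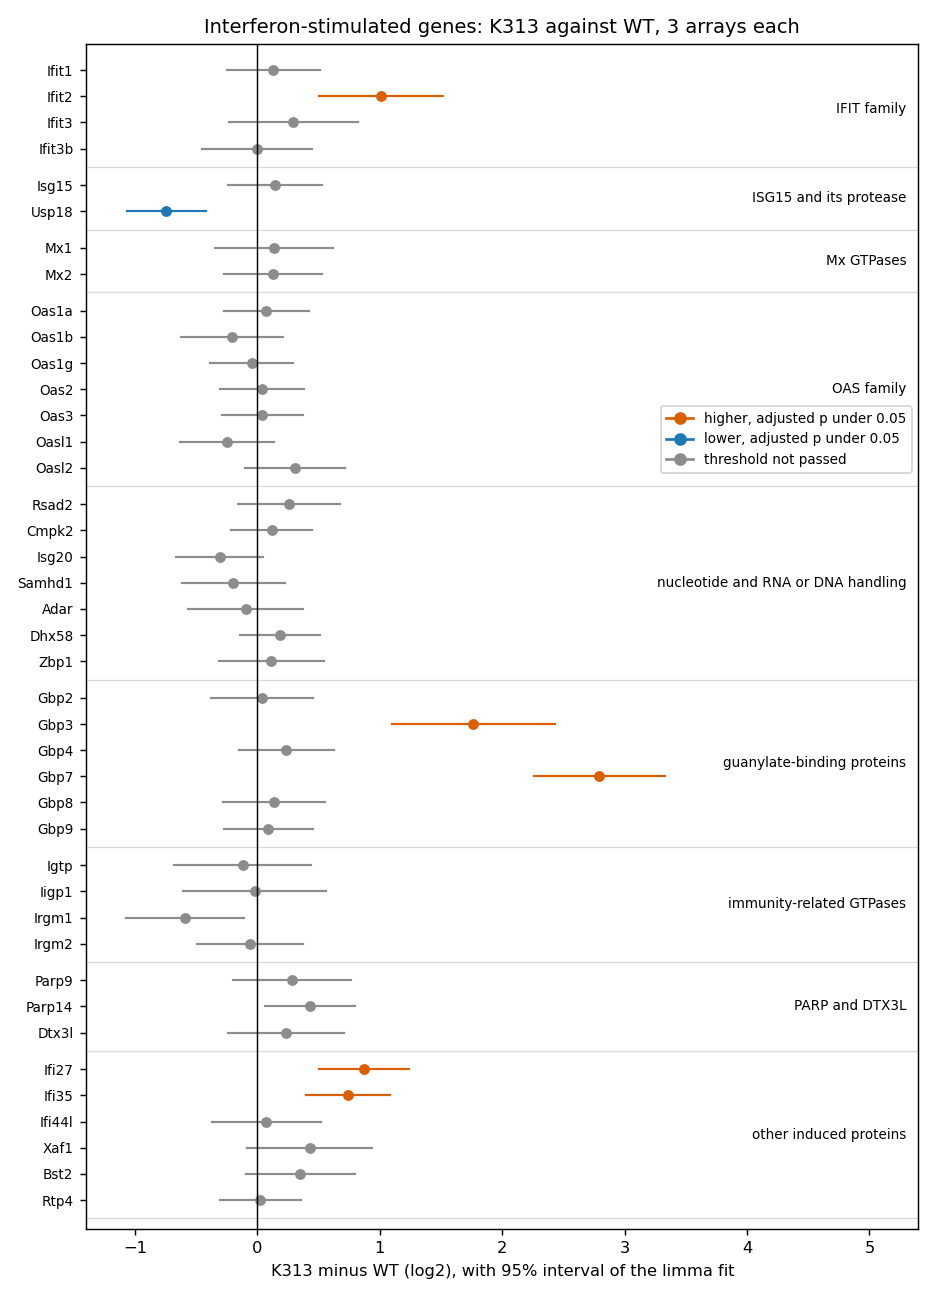
Difference between the groups for each of the 41 measured members, on the log2 scale, K313 minus WT, with the 95% interval of the limma fit, 3 arrays per group. Members are grouped by role. Orange marks the 5 that rose, blue Usp18, which fell, and grey those that did not pass the threshold. Gbp7 at 2.79 and Gbp3 at 1.76 lie farthest to the right.

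Markers of the labelled cell type were present, and so were basophil and mast cell markers. WT means were 18.41 for Mpo and 11.63 for Elane, and 17.24 for Cpa3, 16.74 for Hdc and 3.63 for Fcer1a. The groups also differed beyond the interferon genes. Of 33 measured cell type markers 15 passed the threshold (45.5%, against 7.75% of all probe sets). Of 8 neutrophil progenitor markers, 4 rose (Elane, Ctsg, Prtn3 and Ms4a3). Kit, on the same list, was lower on every K313 array than on any WT array (difference -0.62 ± 0.22, adjusted p = 0.148). The mean log2 level over all 8 was 13.58 to 13.67 on the WT arrays and 14.31 to 14.53 on the K313 arrays. Of 6 monocyte and macrophage markers, 3 rose (F13a1 at a difference of 2.95, Ly6c2 at 1.77 and Ccr2 at 0.87). From the same list 2 fell (Cx3cr1 at -2.04 and Adgre1 at -0.78). Their mean level, 8.87 to 8.97 in WT and 9.08 to 9.55 in K313, thus joins changes in opposite directions. Of 6 basophil and mast cell markers, 3 fell (12.68 to 12.99 against 12.08 to 12.39). None of 6 markers of plasmacytoid dendritic cells, a strong source of interferon, passed the threshold. The mean level over all 6 was 5.60 to 5.85 in WT and 5.77 to 5.94 in K313. In limma, 1 of the 6 had an unadjusted p under 0.05. That 1 was Tcf4, at 12.54, 11.96 and 12.35 in WT and 13.24, 12.94 and 12.64 in K313 (difference 0.66 ± 0.21, adjusted p = 0.0908), with every K313 array above every WT array. Siglech averaged 5.85 and 5.87 in WT and K313, and Ly6d, Ccr9 and Spib lay at the low end in both. Of 3 B cell markers Cd79a fell by 1.40 (adjusted p = 0.000268). Of 4 T and NK cell markers Cd3g fell by 1.49 (0.0023) and Klrb1c rose by 1.16 (0.0137). Hoxb8 itself fell by 4.64, Cebpa read 14.35 to 14.85 in WT and 13.85 to 14.45 in K313, and the Y-linked gene Eif2s3y read 3.11, 2.93 and 7.03 in WT and 12.37, 12.09 and 12.24 in K313. The Y-linked genes Uty and Kdm5d were higher in K313 too, by 7.23 and 4.63. In WT, Uty read 3.72, 3.78 and 6.81 and Kdm5d read 3.10, 3.37 and 4.31. WT replicate 3 was thus the highest WT array in each of these Y-linked genes. It was also the highest WT array for Gbp7, Gbp3, Ifit2 (4.55 against 4.50 in replicate 2) and Ifi35, and it tied with replicate 2 for Ifi27 and Usp18. Usp18 was lower in K313, so its highest WT readings lie away from K313, unlike those of the genes that rose. What sets this array apart was not tested. The labels do not say whether both groups derive from the same animal or line, so a difference of source and the form of C/EBPα cannot be told apart in any K313 minus WT value. The part of these differences in the members' changes was not tested. In RNA from whole cultures, fewer cells of a type and less RNA per cell cannot be told apart.

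Guanylate-binding proteins (GBPs) are interferon-induced GTPases that assemble on intracellular pathogens and the vacuoles around them. Of 6 measured, 2 rose and 4 did not pass the threshold. Gbp7 read 6.80, 7.24 and 7.68 on the WT arrays and 10.38, 10.02 and 9.70 on the K313 arrays. Every K313 array lay above every WT array, and within WT replicate 3 was the highest. The difference was 2.79 ± 0.24 (adjusted p = 2.2e-05), a 6.93-fold rise, and it was 3.01 without WT replicate 3. Gbp3 read 3.96, 3.80 and 4.80 in WT and 6.53, 5.85 and 5.47 in K313. The groups did not overlap, and the difference of 1.76 ± 0.30 (adjusted p = 0.00342) corresponds to 3.39-fold. Its WT mean of 4.19 lies at the low end of the scale.

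Gbp7 and Gbp3 are neighbours on chromosome 3, where the RefSeq gene order (assembly GRCm38.p6) runs Gbp5, Gbp7, Gbp3, Gbp2b, Gbp2 and then Kyat3, an aminotransferase gene outside the family. Gbp2, in the same cluster, read 3.47, 4.11 and 3.93 in WT and 3.92, 3.94 and 3.76 in K313. Its groups overlapped and its difference was 0.04 ± 0.19 (adjusted p = 0.957, 95% interval up to 0.45). The means of Gbp2, 3.84 in WT and 3.87 in K313, lie at the low end of the scale, where a change may be flattened. Kyat3 differed by 0.07 (adjusted p = 0.872). The family's other measured members lie together on chromosome 5. There, Gbp8 differed by 0.14 ± 0.19, Gbp9 by 0.09 ± 0.17 and Gbp4 by 0.24 ± 0.18 (adjusted p between 0.578 and 0.866). Gbp9 and Gbp4 also lie at the low end in both groups. GBP genes are similar in sequence, and how far each probe set separates them is not stated in the labels.

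The promoter windows of the chromosome 3 neighbours are shown because Gbp7 and Gbp3 rose and Gbp2, beside them, did not pass the threshold. Each runs from 250 bases before to 50 after the gene's start in RefSeq, build GRCm38.p6, plus strand (chr3:142530086-142530385 for Gbp7, chr3:142559794-142560093 for the first listed start of Gbp3 and chr3:142620413-142620712 for Gbp2). Capitals mark ISRE-like matches, defined as GAAA, any 2 bases and GAAA again on either strand, and overlapping matches run together.
Gbp7: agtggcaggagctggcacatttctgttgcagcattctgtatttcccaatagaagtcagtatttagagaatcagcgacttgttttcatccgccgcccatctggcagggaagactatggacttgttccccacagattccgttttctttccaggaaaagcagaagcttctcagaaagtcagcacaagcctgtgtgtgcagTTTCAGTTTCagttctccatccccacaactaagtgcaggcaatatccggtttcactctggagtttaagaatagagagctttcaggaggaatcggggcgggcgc
Gbp3: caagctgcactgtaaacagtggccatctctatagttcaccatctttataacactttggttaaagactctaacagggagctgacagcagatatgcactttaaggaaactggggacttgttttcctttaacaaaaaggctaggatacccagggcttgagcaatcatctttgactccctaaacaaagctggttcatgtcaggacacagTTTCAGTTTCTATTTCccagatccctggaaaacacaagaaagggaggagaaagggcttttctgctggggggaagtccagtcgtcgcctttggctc
Gbp2: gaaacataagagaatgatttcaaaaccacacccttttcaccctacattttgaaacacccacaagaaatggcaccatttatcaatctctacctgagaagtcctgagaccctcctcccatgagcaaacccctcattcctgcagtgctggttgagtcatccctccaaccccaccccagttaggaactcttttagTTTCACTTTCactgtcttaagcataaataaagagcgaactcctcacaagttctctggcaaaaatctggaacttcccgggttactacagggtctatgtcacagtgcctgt
All 3 windows hold such a match in the reverse orientation, with its first base 53 bases before the start in Gbp7, 45 and 39 in Gbp3 and 59 in Gbp2. A match was thus present beside the gene that did not pass the threshold as well as beside those that rose. Since Gbp2 lies at the low end in both groups, its reading does not show that the gene stayed unchanged. The Gbp7 window also holds 2 GAS-like matches (TTCNNNGAA), TTCCAGGAA and TTCTCAGAA, starting 106 and 87 bases before the start, and the windows of Gbp3 and Gbp2 hold none. Of the 3, the Gbp3 window alone holds a match to TTGCNNAA, letters related to C/EBP sites, in the reverse orientation, which reads TTGAGCAA on the plus strand. These are matches of letters in the reference strain, not measured binding, and no match says only that these letters are not in the window.

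Promoter windows were in the table for 26 of the 41 measured members. ISRE-like letters were found in 15 of these genes (57.7%), against 3.99% of all 27025 genes with windows. Of the 15, 2 passed the threshold (Gbp7 and Gbp3), and of the 11 without such a match 2 passed (Ifit2 and Ifi35). Of all probe sets 7.75% passed. Genes at the low end in both groups are found with a match (such as Isg15, Ifit1 and Gbp2) and without (such as Oasl1 and Xaf1). A change there may not be called, so these counts do not show whether the letters go with a change. GAS-like letters were found in 10 of the 26 (38.5%), against 9.55% of all genes, and TTGCNNAA in 2 (7.69%), against 12.2%.

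**Figure D2:**
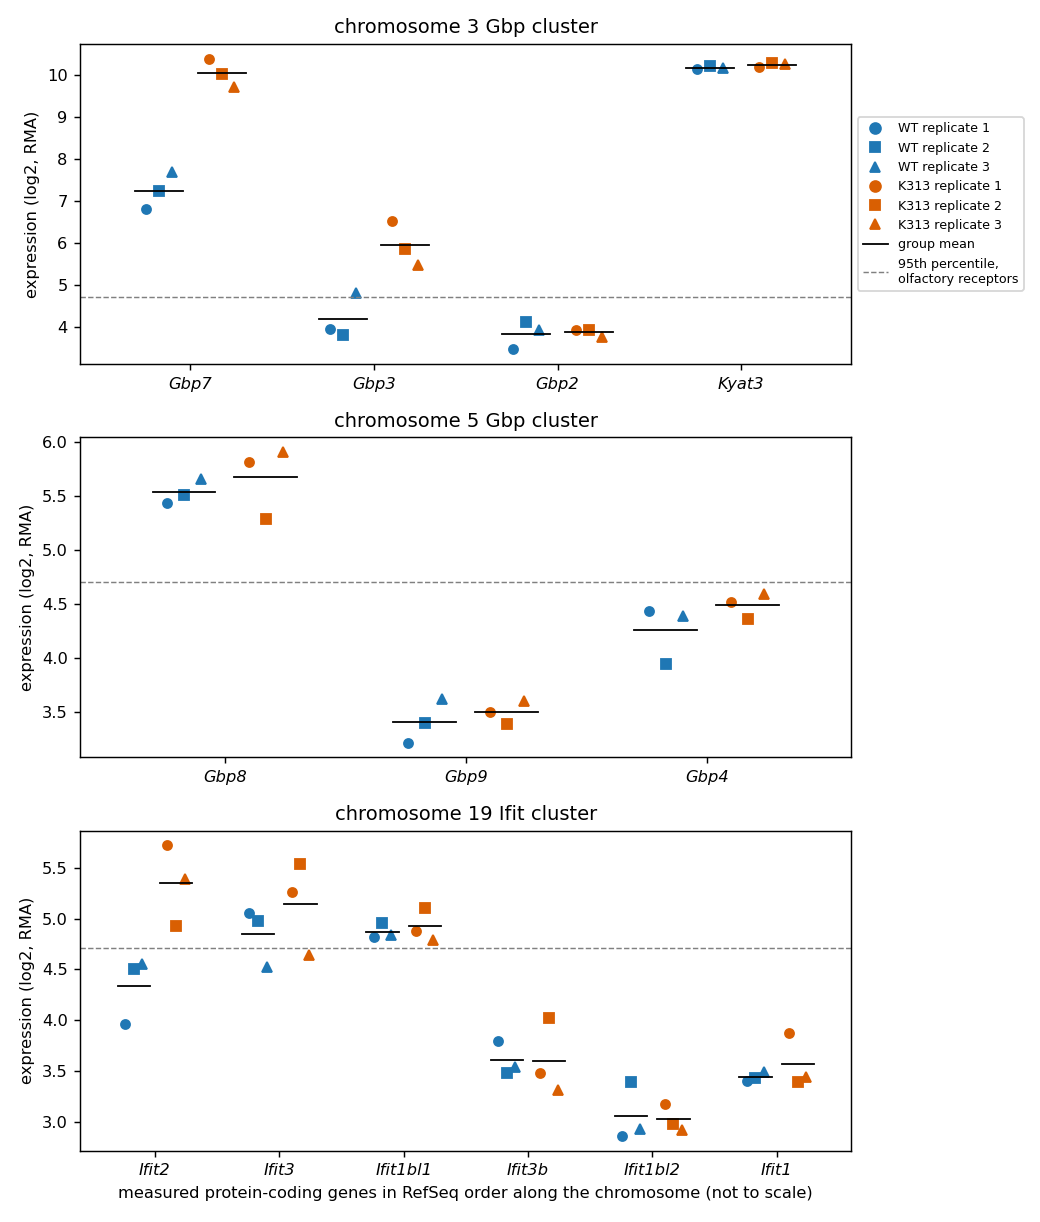
Log2 expression on each array for the measured genes of the 2 GBP clusters and the Ifit cluster, in RefSeq order and not to scale; circles, squares and triangles are replicates 1, 2 and 3, and black bars are group means. The dashed line is the 95th percentile of olfactory receptor probe sets in K313 (4.71). Gbp7, Gbp3 and Ifit2 stand apart between the groups, and the other genes overlap.

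The IFIT proteins bind foreign RNA ends and block its translation. Of 4 members on chromosome 19, Ifit2 rose. It read 3.96, 4.50 and 4.55 in WT and 5.72, 4.93 and 5.39 in K313, so the groups did not overlap. The difference was 1.01 ± 0.23 (adjusted p = 0.0198), or 2.01-fold from a low WT level. Leaving out replicate 1 of WT (adjusted p = 0.0732), or replicate 1 (0.0804) or 3 (0.0777) of K313, ended the call. Ifit3 read 5.06, 4.98 and 4.52 in WT and 5.26, 5.54 and 4.64 in K313, an overlap, and differed by 0.29 ± 0.24 (adjusted p = 0.618). Ifit1 differed by 0.13 ± 0.17 and Ifit3b, a close copy of Ifit3 whose signal may be shared with it, by 0.00 ± 0.20.

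The windows of Ifit2 and Ifit3 are shown because the first gene rose and the second did not pass the threshold. They lie at chr19:34550444-34550743 (the first of its listed starts) and chr19:34583279-34583578, plus strand, in the same build. Capitals in Ifit3 mark the ISRE-like letters and in Ifit2 the GAS-like TTCNNNGAA, since neither of its windows held an ISRE-like match.
Ifit2: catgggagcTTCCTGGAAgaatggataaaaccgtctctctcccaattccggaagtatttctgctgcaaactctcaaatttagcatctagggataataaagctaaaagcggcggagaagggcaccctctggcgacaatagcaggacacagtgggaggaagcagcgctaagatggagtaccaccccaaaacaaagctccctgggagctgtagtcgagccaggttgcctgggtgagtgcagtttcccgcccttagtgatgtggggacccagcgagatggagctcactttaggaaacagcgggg
Ifit3: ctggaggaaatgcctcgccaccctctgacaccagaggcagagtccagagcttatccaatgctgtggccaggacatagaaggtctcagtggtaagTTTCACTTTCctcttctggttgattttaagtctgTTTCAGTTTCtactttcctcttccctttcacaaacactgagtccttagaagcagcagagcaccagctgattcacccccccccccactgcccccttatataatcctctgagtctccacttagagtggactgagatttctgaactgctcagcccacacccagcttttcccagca
The Ifit3 window holds 2 ISRE-like matches in the reverse orientation, 156 and 122 bases before the start. The Ifit2 window holds 1 GAS-like match 241 bases before its listed start.

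ISG15 is a ubiquitin-like protein that is attached to other proteins after interferon, and USP18 removes it and also restrains signalling at IFNAR2. Usp18 was the 1 member that fell. It read 5.25, 5.31 and 5.31 in WT and 4.58, 4.58 and 4.48 in K313, with little spread and no overlap. The difference was -0.74 ± 0.15 (adjusted p = 0.0079), 1.67-fold lower, to a K313 mean at the low end of the scale, and the call held whichever of the 6 arrays was dropped. Isg15 itself read 3.63, 3.28 and 3.32 in WT and 3.40, 3.79 and 3.47 in K313. These low values overlapped, and the difference was 0.14 ± 0.17 (adjusted p = 0.768). Its promoter is shown as an example of a low gene with several ISRE-like copies, which overlap in the stretch at chr4:156200860-156200911 (minus strand, capitals mark the ISRE-like letters).
Isg15: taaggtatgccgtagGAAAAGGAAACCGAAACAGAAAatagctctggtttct
The stretch holds 3 matches, whose first bases lie 78, 72 and 66 bases before the start.

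Among the enzymes of ISG15 attachment, which are not members, Uba7, the activating enzyme, fell. It read 7.09, 7.35 and 7.66 in WT and 5.91, 6.23 and 5.66 in K313, a difference of -1.43 ± 0.20 (adjusted p = 0.000837). The conjugating enzyme Ube2l6 differed by 0.26 ± 0.17 (adjusted p = 0.504) at low levels. The ligase Herc6 differed by 0.53 ± 0.20 (adjusted p = 0.163), with every K313 array above every WT array. The activating enzyme and the protease were thus lower in K313, while the modifier and the other enzymes did not pass the threshold.

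**Figure D3:**
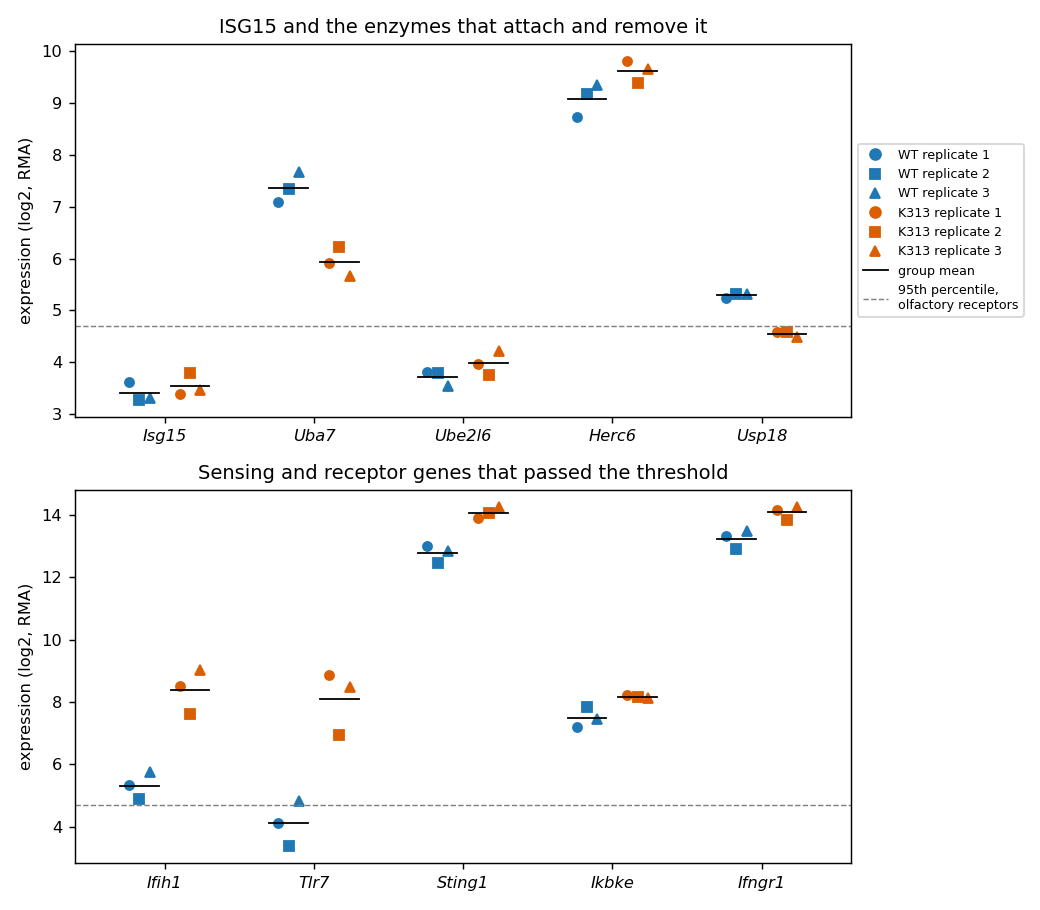
Log2 expression on each array for Isg15 and the enzymes of its attachment and removal (top), and for sensing and receptor genes that passed the threshold (bottom). Symbols mark replicates, black bars group means and the dashed line the 95th percentile of olfactory receptor probe sets in K313. Uba7 and Usp18 lie lower in K313, and Ifih1 and Tlr7 show the widest separation.

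Mx proteins are dynamin-like GTPases that block viral replication, and many laboratory mouse strains carry defective copies. Neither member passed the threshold (0 at an unadjusted p under 0.05 in limma as well): Mx1 differed by 0.14 ± 0.22 and Mx2 by 0.13 ± 0.18. Oligoadenylate synthetases make the second messenger that activates the ribonuclease RNase L upon double-stranded RNA. None of 7 OAS genes passed (0 at an unadjusted p under 0.05), and their differences ran from -0.25 for Oasl1 to 0.31 for Oasl2. Oas1b, the flavivirus resistance gene, read 5.87, 5.60 and 5.91 in WT and 5.38, 5.43 and 5.94 in K313. Those groups overlapped, at a difference of -0.21 ± 0.19 (adjusted p = 0.663). Oas1a and Oas1g are close copies whose signals may be shared.

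Of the 7 members that act on nucleotides or handle RNA or DNA, 0 passed the threshold (0 at an unadjusted p under 0.05). Samhd1, which depletes deoxynucleotides and limits reverse transcription, read 11.82, 11.13 and 11.55 in WT and 11.40, 11.23 and 11.28 in K313, a difference of -0.20 ± 0.19. Adar, which edits double-stranded RNA, differed by -0.10 ± 0.21 and Cmpk2, a mitochondrial nucleotide kinase, by 0.12 ± 0.15. The exonuclease gene Isg20 read 8.18, 8.05 and 8.19 in WT and 7.67, 8.05 and 7.78 in K313. These values met at 8.05, and the difference was -0.31 ± 0.16 (adjusted p = 0.371). Rsad2, the gene of viperin, differed by 0.26 ± 0.19 at the low end of the scale. The sensors Dhx58 and Zbp1 differed by 0.18 ± 0.15 and 0.11 ± 0.19.

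Immunity-related GTPases act with GBPs against vacuolar pathogens. None of 4 measured passed (1 at an unadjusted p under 0.05), and all 4 estimates were negative. Irgm1, a regulator of the family, read 11.29, 10.62 and 11.18 in WT and 10.74, 10.44 and 10.14 in K313. The lowest WT array lay within the K313 range, and the difference was -0.59 ± 0.22 (adjusted p = 0.164). Without WT replicate 2, that lowest array, it passed (-0.79, adjusted p = 0.0479). Igtp differed by -0.12 ± 0.25, Irgm2 by -0.06 ± 0.20 and Iigp1 by -0.02 ± 0.26. The calls among GTPase genes were thus the 2 of the GBP family.

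PARP9 and DTX3L form a complex that modifies proteins and enhances interferon signalling, and PARP14 is a related transferase. Their genes lie together on chromosome 16, and 0 of 3 passed (1 at an unadjusted p under 0.05). Parp14 read 5.32, 5.06 and 5.29 in WT and 5.43, 5.78 and 5.75 in K313. Its groups did not overlap, but the difference of 0.43 ± 0.17 missed the threshold (adjusted p = 0.188). Parp9 differed by 0.28 ± 0.22 and Dtx3l by 0.23 ± 0.21.

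Among the remaining induced proteins, 2 of 6 rose. Ifi35, whose product binds NMI and modulates innate signalling, read 8.39, 8.42 and 8.60 in WT and 9.10, 9.33 and 9.20 in K313. The groups did not overlap, and the difference was 0.74 ± 0.15 (adjusted p = 0.0117), or 1.67-fold. It missed the threshold without K313 replicate 2 (0.0628). Next to it on chromosome 11, Vat1 and Rnd2 rose too (1.62, adjusted p = 5.5e-05, and 1.85, adjusted p = 5.81e-05), while Rpl27 on its other side differed by -0.07 (0.908). On chromosome 6 the tubulin gene Tuba8, beside Usp18, fell by 1.51 (adjusted p = 0.000143), and Slc6a13 on the other side differed by 0.16 (0.761). These flanking genes were chosen after their values were seen.

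Ifi27, a mitochondrial membrane protein gene, read 3.59, 3.93 and 3.93 in WT and 4.73, 4.54 and 4.79 in K313. The groups did not overlap, and the difference was 0.87 ± 0.17 (adjusted p = 0.0067), a 1.83-fold rise within the lowest part of the scale. Its relatives Ifi27l2a, which overlaps it in the annotation, and Ifi27l2b differed by 0.06 and 0.18 (adjusted p = 0.903 and 0.684). Bst2, the gene of tetherin, which holds budding virions at the cell surface, read 14.18, 13.38 and 13.80 in WT and 14.14, 14.07 and 14.20 in K313. These overlapped, with a difference of 0.35 ± 0.20 (adjusted p = 0.43). Xaf1, a pro-apoptotic gene, differed by 0.43 ± 0.23 (adjusted p = 0.391), Ifi44l by 0.07 ± 0.20 and Rtp4 by 0.02 ± 0.15.

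**Figure D4:**
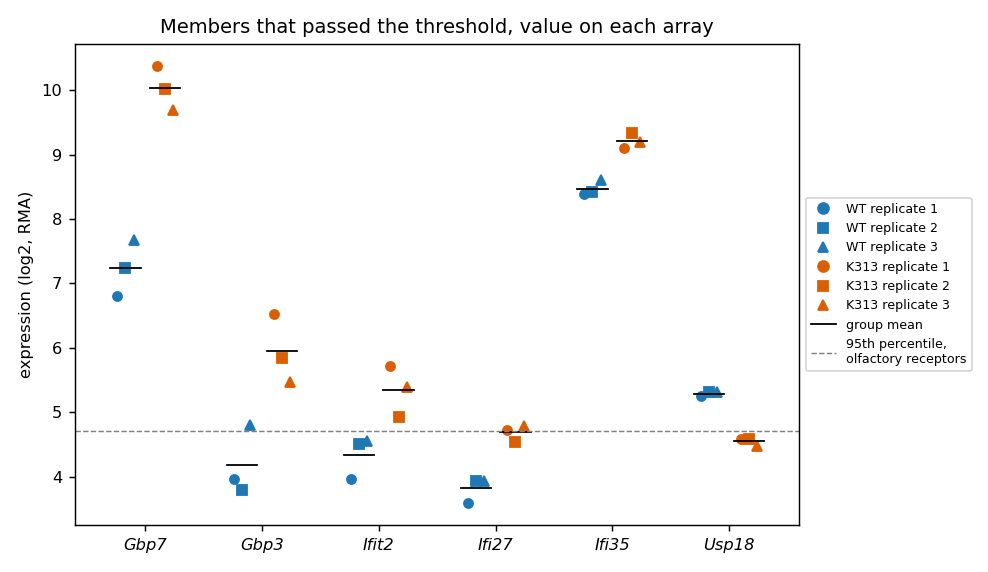
Log2 expression of the 6 members that passed the threshold, on each of the 6 arrays. Symbols mark replicates, black bars group means and the dashed line the 95th percentile of olfactory receptor probe sets in K313. In each gene all K313 arrays lie on the same side of all WT arrays; WT replicate 3 is the WT array nearest to K313 for Gbp7, Gbp3, Ifit2 and Ifi35.

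No detection calls were used here. Olfactory receptor genes, which blood progenitors are not known to use, served as a guide to the low end: the 95th percentile of their 1091 probe sets was 4.65 in WT and 4.71 in K313, a reference chosen after seeing the data. Group means of 20 members stayed at or below it in both groups. They include the classical antiviral genes Isg15, Ifit1, Mx1, Mx2, Oas1a, Oas2, Oas3, Rsad2 and Rtp4, and 1 called gene, Ifi27. Gbp2, Gbp4 and Gbp9 are among them as well. 17 members were above it in both groups, of which 2 passed (Gbp7 and Ifi35). Gbp3, Ifit2 and Oasl2 were above it in K313 alone, and Usp18 in WT alone. Probe sets differ in affinity, so the reference does not show that a gene below it is silent. Of the 16 members that did not pass and were above it in a group, 15 had a 95% interval within a 2-fold change in either direction, the exception being Irgm1 (lower bound -1.07).

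**Figure D5:**
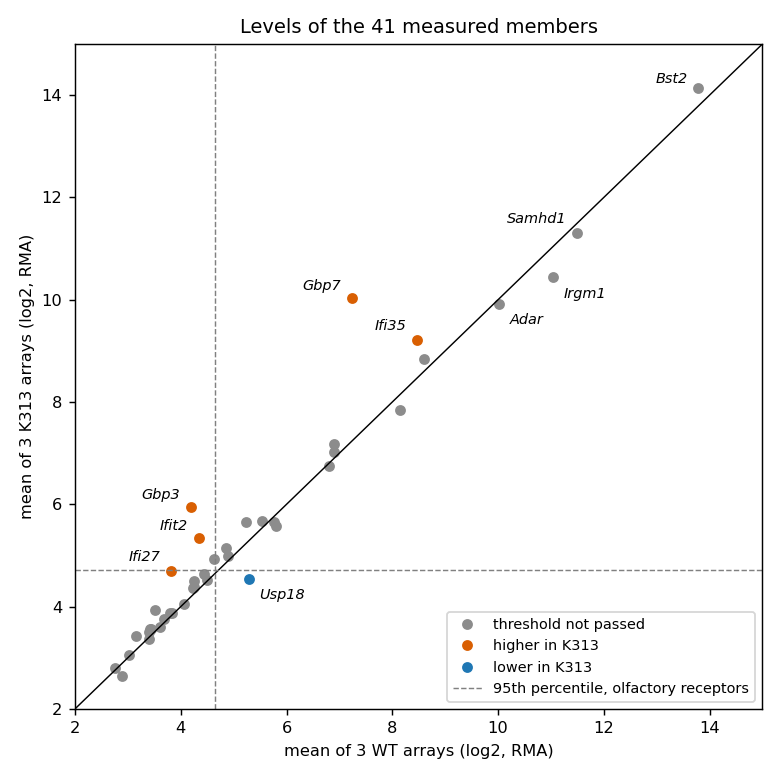
Mean log2 level of each of the 41 measured members in K313 (vertical) against WT (horizontal), 3 arrays each, with the line of equal levels. Dashed lines are the 95th percentiles of olfactory receptor probe sets, 4.65 in WT and 4.71 in K313. 20 members lie in the lower left field, and Gbp7 stands farthest above the line.

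The rest of the interferon pathway was read from 99 measured genes of 107 listed, of which 11 rose and 4 fell (15.2%, against 7.75% of all probe sets; median difference 0.01). Depending on the array left out, 4 to 9 rose and 3 to 4 fell. With ordinary variance 1 of the 99 passed, against 496 of all 22206 probe sets, so the larger share was not seen in that fit. At an unadjusted p under 0.05, 27 of the 99 passed in limma and 26 with ordinary variance. Why the adjusted calls were lost was not tested. None of 19 interferon ligand genes passed (1 at an unadjusted p under 0.05). Ifnb1 read 4.12, 4.49 and 4.61 in WT and 4.23, 4.78 and 4.42 in K313, an overlap at the low end, and Ifng differed by -0.15 ± 0.20. The lowest p among ligands was that of Ifnz, at -0.46 ± 0.16 (adjusted p = 0.143).

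Of 6 receptor genes, Ifngr1, the ligand-binding chain for interferon gamma, rose. It read 13.31, 12.91 and 13.47 in WT and 14.15, 13.84 and 14.24 in K313, without overlap, a difference of 0.85 ± 0.19 (adjusted p = 0.0182). The call ended when replicate 2 of WT (0.0604), or replicate 1 (0.0683) or 3 (0.0835) of K313, was left out. Ifngr2 differed by -0.25 ± 0.20, Ifnar1 by 0.06 ± 0.19 and Ifnar2 by -0.22 ± 0.15. Of the kinases and STAT genes 0 of 4 passed (1 at an unadjusted p under 0.05). Jak2 came nearest, at -0.64 ± 0.19 (adjusted p = 0.0678), and Stat2 differed by -0.44 ± 0.23. None of 7 IRF factors passed (3 at an unadjusted p under 0.05). Irf8 differed by 0.58 ± 0.17 (adjusted p = 0.0716) and Irf9, the DNA-binding part of the type I complex, by 0.50 ± 0.16 (0.0988), both with separate groups. Irf5 differed by -0.38 ± 0.15 (adjusted p = 0.215). Irf7, which amplifies interferon production, read 2.56 to 2.87 in WT and 2.78 to 3.25 in K313.

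Of 12 sensing and adaptor genes 4 passed the threshold (33.3%, against 7.75% of all probe sets). That is the largest share among the roles of the pathway list, which was chosen with earlier results of these data known. Ifih1, the gene of the double-stranded RNA sensor MDA5, read 5.33, 4.89 and 5.75 in WT and 8.50, 7.61 and 9.03 in K313, a rise of 3.06 ± 0.33 (adjusted p = 0.000102). It is also the neighbour of Gca on chromosome 2, which rose by 6.87 and was chosen after its values were seen. The X-linked Tlr7, an endosomal receptor for single-stranded RNA, read 4.12, 3.39 and 4.83 in WT and 8.87, 6.95 and 8.47 in K313, a rise of 3.98 ± 0.46 (adjusted p = 0.000182) from a WT mean at the low end of the scale. The sensor adaptor Sting1 rose by 1.29 ± 0.18 (adjusted p = 0.000898), from 12.46 to 12.99 in WT to 13.88 to 14.23 in K313. The kinase Ikbke rose by 0.67 ± 0.18 at the edge of the threshold (adjusted p = 0.04998) and held in 1 of 6 fits with an array dropped. Ddx58, the gene of RIG-I, and Cgas differed by -0.02 ± 0.23 and 0.06 ± 0.27. Of 12 genes of this group 4 thus rose and 0 fell in the limma fit. At an unadjusted p under 0.05, 6 passed, a cut for which no share over all probe sets is given here. With ordinary variance all 4 lost their calls, at adjusted p = 0.0845 for Ifih1, 0.107 for Tlr7, 0.0733 for Sting1 and 0.232 for Ikbke.

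Among inhibitors, Ptpn6, the gene of the phosphatase SHP-1, fell by 0.78 on the log2 scale (adjusted p = 0.0239), a call kept in 1 of those 6 fits. The feedback inhibitors Socs1 and Socs3 differed by 0.28 ± 0.20 and 0.05 ± 0.19. Of 45 further interferon-stimulated genes, 6 rose and 3 fell. Besides Uba7, Ifi30, a lysosomal thiol reductase of antigen processing, fell by 1.83 (adjusted p = 0.000141) and the RNA helicase gene Mov10 fell by 0.83 (0.0091). Trim30a rose by 1.2 ± 0.25 (adjusted p = 0.0129), the immunoproteasome gene Psmb10 by 0.97 ± 0.21 (0.0145), Casp4 by 0.91 ± 0.22 (0.0243), Parp12 by 0.87 ± 0.15 (0.004), Cd69 by 0.76 ± 0.18 (0.0259) and Lgals3bp by 0.66 ± 0.18 (0.0472). With each array dropped in turn, Parp12 kept its call in all 6 fits, Trim30a and Psmb10 in 4, Casp4 in 2, Cd69 in 1 and Lgals3bp in 0. Cxcl10 and the kinase Eif2ak2, further interferon-stimulated genes, differed by 0.09 ± 0.16 and -0.08 ± 0.19.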

How the data were processed

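Total RNA from 6 samples was measured on Affymetrix arrays, 3 per group, and grouped by title. The deposited log2 values were made by the authors with RMA and the Transcriptome Analysis Console, per the submitters' processing notes; versions and the array's build are not given in the sources used here. RMA normalises between arrays, so an overall change in RNA per cell may not show, and it can flatten differences of dim probe sets. Array medians lay between 5.01 and 5.13. Arrays have no read depth; their number limits the precision, and the median standard error was 0.18.

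19572 of 22206 probe sets have 1 gene symbol in the platform annotation, 0 have several and 2634 have none; all were tested. limma 3.58.1 (R 4.3.3) was fitted with eBayes on a model holding only the group (two-sided, threshold 0.05). On simulated data (22206 probe sets) it recovered 4% of 50 probe sets changed by a log2 of 0.5, 90% at 1 and 100% at 2, with 7 false calls among 154. The simulated noise was independent and normal, drawn from limma's own shared variances. Only 50 probe sets were changed at each log2 size of 0.5, 1, 2 and 3, while 1720 passed in the data. Recovery and false calls in the data may therefore differ. Members and lists were chosen with earlier results of these data known, and no list was tested. 2 symbols of the pathway list were updated through RefSeq (Cgas, Sting1). Named genes were all members and, of the pathway, those past the threshold and up to 4 per role with the smallest p; Ifnb1, Ifng, Ifnar1, Irf7, Ddx58, Cgas, Socs3, Cxcl10, Eif2ak2, Ube2l6, Herc6 and flanking genes were chosen after their values were seen. Promoter sequences and gene order are from RefSeq, GRCm38.p6.

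Alternatives were a common median, quantile normalization, dropping the dimmest 30% of probe sets, an intensity trend with robust prior, array weights, ordinary variance, a replicate block, 1-symbol probe sets and leaving out each array.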

Additional observations from a re-analysis of the deposited data

How the results depend on the processing

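The same 6 members passed under a common median, quantile normalization, array weights, an intensity trend, 1-symbol probe sets and without the dimmest 30% of probe sets. The median difference over the members was 0.054 with quantile normalization and 0.04 with a common median, and 0.083 to 0.165 without 1 array. With ordinary variance per probe set 496 probe sets passed in place of 1720, and Gbp7 and Usp18 were the members called (1 higher, 1 lower). Gbp3 (adjusted p = 0.186), Ifit2 (0.247), Ifi27 (0.084) and Ifi35 (0.055) were lost; of the pathway genes 1 rose (Parp12) and 0 fell (26 at an unadjusted p under 0.05, 12 of them lower). Without 1 array 1228 to 1465 probe sets passed, 4 to 5 members rose and 1 to 2 fell, and 4 to 9 pathway genes rose and 3 to 4 fell. Lgals3bp and Ikbke missed the threshold with quantile normalization, a common median, an intensity trend and the replicate block, and Cd69 with a common median. The labels do not say whether equal replicate numbers mark paired samples. Same-numbered arrays deviated together at correlations of -0.06 to 0.03, and differently numbered ones at -0.08 to 0.14. No strong shared deviation was seen, but 3 arrays per group cannot settle whether samples were paired. With the replicate block 1546 probe sets passed, with the same 6 members. The cause of these shifts was not tested. Arrays limit the precision by their number, and 20 members lie at the low end, where changes may be flattened.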
